A study of Mus musculus with 24 samples.

Results

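The enzymes that make purine and pyrimidine nucleotides were followed in mouse pancreatic organoids as a set of 31 genes, chosen by name and matched to the expression table by exact symbol. Of the 31, 28 had an entry of their own among the 19895 entries of the table, and all 28 had reads in every library. Ppat and Paics shared 1 entry and Tk1 shared another with Afmid, so these 3 genes are described through the shared entries. Their read counts ran from 299 (Cad) to 131289 (Nme2) per library. The table held 24 RNA-seq libraries from 12 lysates, in 8 groups of 3. N organoids came from normal ductal cells of wild-type C57Bl/6J mice. KP organoids came from the tumours of KPC mice, in which Pdx1-Cre had switched on engineered alleles, Trp53 +/LSL-R172H among them, wherever the Pdx1 promoter drove it. Both kinds received either DMSO (vehicle, labelled Control) or 10 nM CR-31 (labelled CR1-31-b), a rocaglate that inhibits the translation initiation helicase eIF4A, for 1 h. Each lysate gave a library of polysome-associated mRNA, pooled from fractions with at least 3 ribosomes per mRNA, and a library of total mRNA. All organoids were treated in medium lacking EGF and NAC, and all received cycloheximide just before lysis. The labels do not say whether replicates were separate cultures or animals, so p-values measure the spread between these samples, which may be technical.

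Nucleotides are built de novo or salvaged from free bases and nucleosides. Both routes draw on PRPP, the activated ribose that Prps1 and Prps2 make. The purine branch assembles the ring stepwise on PRPP up to IMP, which is then turned into AMP or GMP. The pyrimidine branch first makes the ring, through Cad and Dhodh, and then joins it to PRPP through Umps to give UMP, from which UTP and CTP follow. Ribonucleotide reductase (Rrm1 and Rrm2) turns ribonucleotides into deoxynucleotides, and Tyms, Dut, Dtymk, Tk1 and Dck supply the remaining DNA precursors. Cells that replicate DNA make more of the last group, and many enzymes of both branches are known targets of the transcription factor Myc, which binds the E-box CACGTG.

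Promoter sequences of RefSeq (GRCm38.p6, 300 bases from 250 before to 50 after a start site) were found for 29 of the 31 genes. Pfas and Dhodh had no entry. The E-box CACGTG, which reads the same on both strands, stood in the windows of 6 of the 29 (20.7%), against 2187 of 27025 genes with a window (8.09%). The stretches around it are shown because these 6 genes come from the purine branch (Atic, Impdh2, Paics), the deoxynucleotide enzymes (Dtymk, Tyms) and the nucleoside diphosphate kinases (Nme1). Each runs 5′ to 3′ on the gene's strand, with the E-box in capitals.
Atic (chr1:71557137-71557166, plus strand, E-box at -7 from the start site): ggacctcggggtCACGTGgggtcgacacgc
Impdh2 (chr9:108560314-108560343, plus strand, at -110): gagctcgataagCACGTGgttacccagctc
Paics (chr5:76951087-76951116, plus strand, at -203): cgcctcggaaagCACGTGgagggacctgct
Dtymk (chr1:93802065-93802094, minus strand, at -148): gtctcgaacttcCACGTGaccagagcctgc
Tyms (chr5:30073669-30073698, minus strand, at -61): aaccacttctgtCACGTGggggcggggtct
Nme1 (chr11:93968037-93968066, minus strand, at -29 from one start): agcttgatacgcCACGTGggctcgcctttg
Nme1 (chr11:93968273-93968302, minus strand, at -18 from another start): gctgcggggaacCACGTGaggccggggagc
These matches describe letters and not binding. Of the 4 E2F-type sequences searched on both strands (TTTCGCGC, TTTGGCGC, TTTCCCGC and TTTGCCGC), TTTCCCGC was found in Ppat and Prps2 and the other 3 in no window of these genes. Any of the 4 stood in 6.9% of the 29 genes and in 2.60% of all genes with a window. The start sites of Paics (chr5, base 76951302, plus strand) and Ppat (base 76951578, minus strand) lay 276 bases apart. Each gene runs from its start toward and past the start of the other, so their 5′ ends overlap. These are the genes whose reads the table pooled.

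Reads of some enzymes could also come from near-identical genes. Every 100-base window of the Nme2 coding sequence and 68.3% of those of Nme1 recurred in the readthrough gene Gm20390, and 78.6% of those of Impdh2 recurred in the pseudogene Impdh2-ps, so the values of these 3 are uncertain. The shares were 7.6% for Prps1, 7.5% for Gmps, 3.8% for Rrm2, 1.3% for Tk1 and 0 for the other members. The longest annotated 5′ UTRs of 28 members had a median of 211.5 nt, against 236 nt over 11082 of the genes tested, with 65.4% against 62.6% GC and 48.7% against 50.8% purines. Rocaglates are known to clamp eIF4A on purine-rich RNA. The longest purine run in these UTRs had a median of 6.5 nt in the members and 8 nt in all the tested genes. The study saw no excess of polypurines in the 5′ UTRs of mRNAs that CR-31 suppressed in KP. It reported those UTRs as slightly shorter, richer in GC and more structured for their length.

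Library totals ran from 47308461 to 267463046 reads. All 10 duct and epithelial markers reached 1 RPKM (reads per length and library size) in some library, with a summed level of 5389 to 9299 RPKM in N and 3720 to 6475 RPKM in KP. Of 8 acinar markers, 7 had an entry and 1 reached 1 RPKM (sums of 2.97 to 4.69 in N and 2.73 to 3.93 in KP). Of 6 immune markers 2 did (3.58 to 19.7 in N and 1.47 to 25 in KP). None of the endocrine, stromal or endothelial markers reached 1 RPKM, with summed levels of at most 0.146 RPKM. Gene counts do not show point-mutant alleles, so the genotype labels could not be checked here. Within each organoid type, 1 lane held the vehicle lysates 1 and 2 beside the CR-31 lysate 1, and another held the remaining 3 lysates. Lane and organoid type were never mixed, so their effects on the contrast of KP with N cannot be told apart.

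Some libraries stood apart. In N replicate 3, the polysome library with CR-31 resembled the vehicle total library (r = 0.984 across genes) more than the vehicle polysome library (r = 0.963), and the total library with CR-31 resembled the vehicle polysome library (r = 0.986) more than the vehicle total library (r = 0.972). Polysome-to-total ratios of these 2 lysates ran opposite to each other (r = -0.485 across genes). In KP replicate 1 with CR-31 the ratios spread most (SD 0.835 on the log2 scale, against 0.462 to 0.564 in the other KP lysates), and its total library had r = 0.977 with vehicle, against 0.991 and 0.994 in the other pairs. The ratios of each of these 2 lysates had low correlations with the other N lysates (median r across genes of 0.12 with vehicle and 0.193 with CR-31, against 0.566 to 0.616 for the remaining N lysates). Whether the polysome and total libraries of either lysate were exchanged was not tested. An exchange would turn the sign of that lysate's polysome-to-total ratios. In the vehicle lysate it would alter the comparison of KP with N with vehicle, in the CR-31 lysate that with CR-31, and in either the effect of CR-31 in N. All libraries were kept as labelled, and the counts of called members that change without both lysates of N replicate 3 and the CR-31 lysate of KP replicate 1 are also given.

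The first comparison asked how levels differed between untreated KP and N organoids. In KP most nucleotide enzyme mRNAs were higher, with the highest branch medians in the deoxynucleotide enzymes, while the CTP synthases Ctps and Ctps2 were lower on polysomes. Of the 28 genes, 18 (64.3%) rose in the polysome-associated mRNA of KP and 2 fell, where 20.9% and 22.2% of all 11438 genes tested were higher and lower (edgeR quasi-likelihood test, Benjamini-Hochberg adjusted p under 0.25, the threshold of the study). In total mRNA 19 (67.9%) were higher and 0 lower, against 13.1% and 15.4% of all genes. The 28 had median log2 fold changes of 0.64 on polysomes and 0.60 in total mRNA, against -0.03 over all genes in each. Without the libraries that stood apart, 16 were higher and 2 lower in polysome-associated mRNA, against 25.2% and 25.4% of all genes, and 17 higher and 1 lower in total mRNA, against 12.7% and 13.5%. The calls of 15 genes in polysome-associated mRNA (13 higher, 2 lower) and of 8 in total mRNA held under all 23 alternative fits. Under at least 1 of them the calls of Prps2, Atic, Cad, Uck2 and Cmpk1 on polysomes were lost. In total mRNA those of Prps2, Gart, Pfas, Adsl, Impdh1, Aprt, Cad, Dhodh, Uck2, Tyms and Nme2 were lost in at least 1. In total mRNA the count fell from 19 to 8, all higher, without N vehicle replicate 3 (6.68% of all genes higher) and to 9, all higher, without KP vehicle replicate 1 (6.42%). Without both lysates of N replicate 3 it was 8 higher and 0 lower, against 8.25% and 10.7%, and pairing lysates by number as a block gave 20 higher and 2 lower, against 26.4% and 27.5%. In bulk libraries fewer cells of a type and less RNA per cell cannot be told apart.

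**Figure D1:**
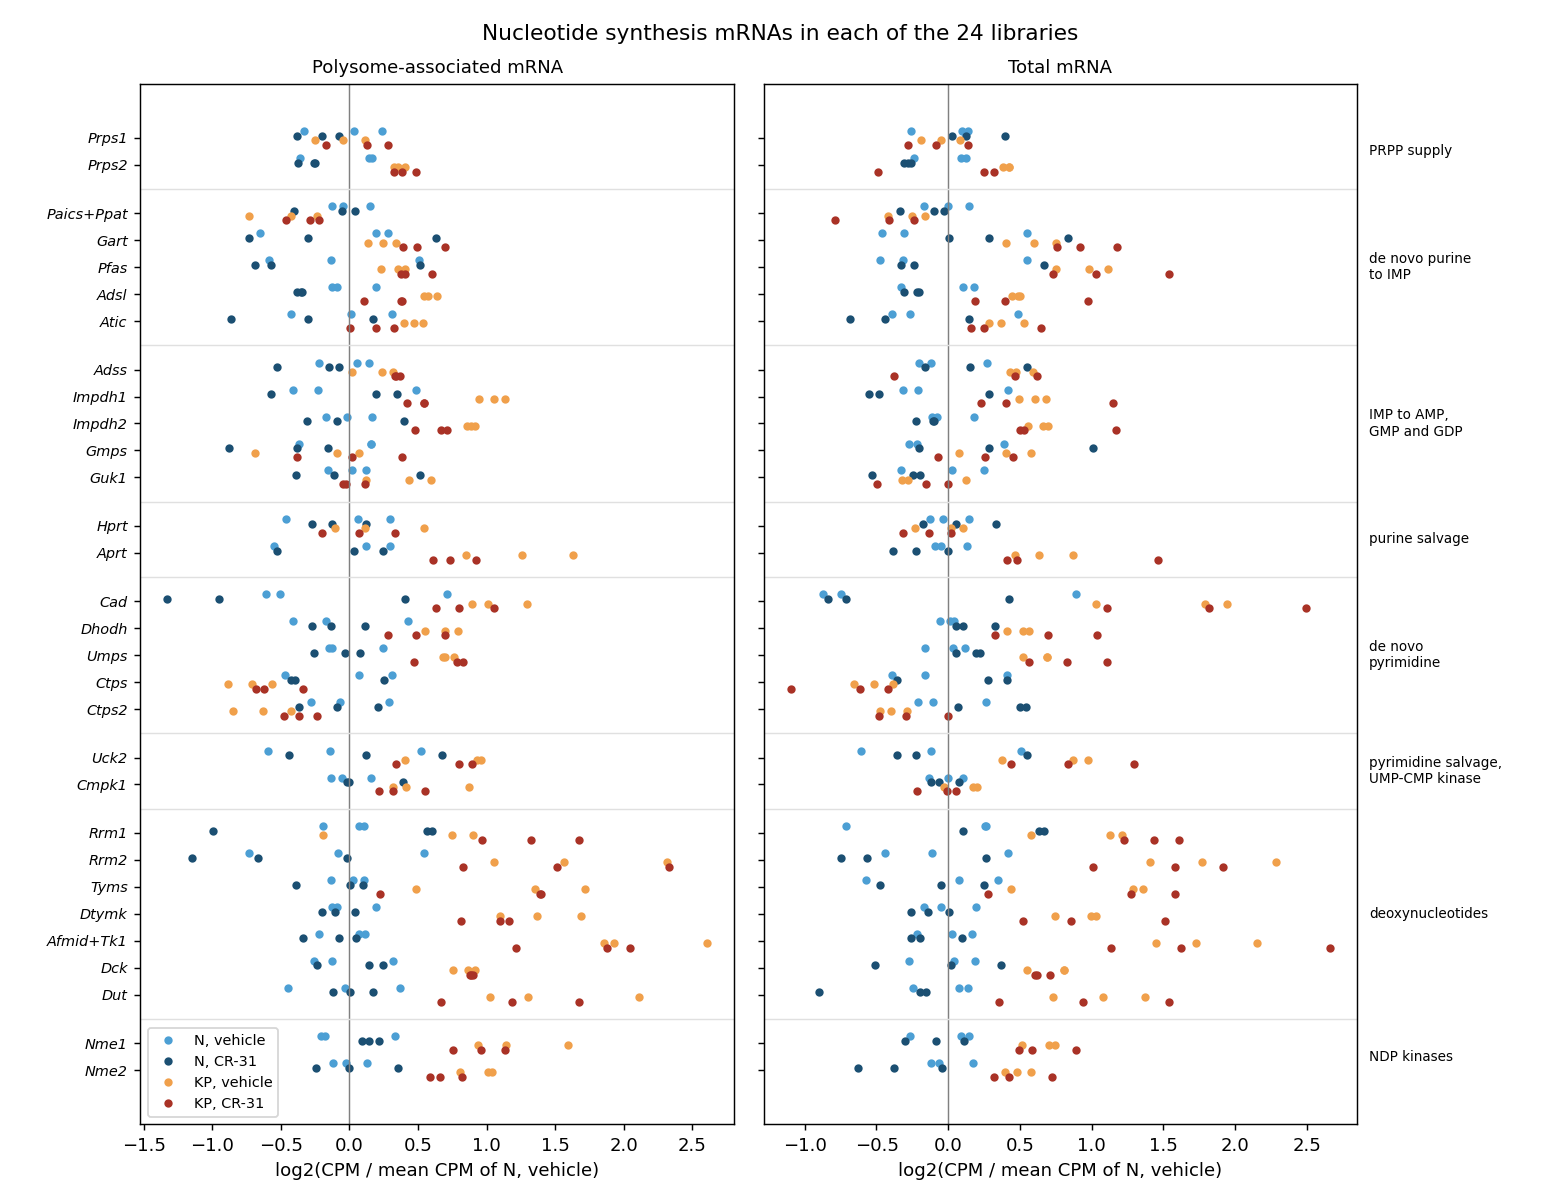
Level of each enzyme's mRNA in each of the 24 libraries, as log2 of CPM over the mean CPM of the N vehicle group, for polysome-associated mRNA (left) and total mRNA (right). Each point is 1 library, coloured by group. KP points lie to the right of the N points for Rrm2, Dtymk, Nme1 and Afmid+Tk1 in both panels, and to the left for Ctps and Ctps2 in most libraries.

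The ribonucleotide reductase subunits opened the deoxynucleotide branch. Rrm2, the small subunit, whose level changes through the cell cycle, was at 40.7, 26.3 and 16.8 CPM (counts per 1000000 of the library, TMM scaled) in the polysome-associated mRNA of the 3 N vehicle lysates and at 139, 58.0 and 82.7 CPM in KP. The groups did not overlap, and both spread widely, with KP replicate 1 the highest. The difference was 1.74 ± 0.47 (SE) on the log2 scale (edgeR adjusted p = 0.0295). In total mRNA Rrm2 was at 46, 31.8 and 25.4 CPM in N and 168, 91.4 and 117 CPM in KP (log2 fold change 1.87 ± 0.35, edgeR adjusted p = 0.0100), again with KP replicate 1 highest. Rrm1, the large subunit, overlapped on polysomes, at 51.3, 49.9 and 41.6 CPM in N and 80.1, 41.7 and 88.8 CPM in KP, with KP replicate 2 inside the range of N. Its log2 fold change there was 0.56 ± 0.39 (edgeR adjusted p = 0.343). In total mRNA Rrm1 separated the groups, at 54.9, 54.6 and 28 CPM in N and 99.9, 68.3 and 106 CPM in KP (log2 fold change 1.00, edgeR adjusted p = 0.0463).

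The thymidylate enzymes were higher in KP in both kinds of library. Dtymk, which phosphorylates dTMP, had the smallest p of all members on polysomes. It was at 65.1, 63.5 and 79.3 CPM in N and 223, 179 and 148 CPM in KP (log2 fold change 1.40 ± 0.21, edgeR adjusted p = 0.00320). In total mRNA it rose from 68.8, 81.4 and 63.1 to 145, 119 and 142 CPM (log2 fold change 0.93 ± 0.24, edgeR adjusted p = 0.0331). The lowest KP value lay above the highest N value in both fractions. Tyms, which methylates dUMP to dTMP, was at 40.6, 38.3 and 34.3 CPM in N and 124, 52.8 and 96.2 CPM in KP on polysomes (log2 fold change 1.27, edgeR adjusted p = 0.0308). Dut, which hydrolyses dUTP to dUMP, was at 66.4, 50.3 and 37.7 CPM in N and 223, 105 and 127 CPM in KP (log2 fold change 1.56, edgeR adjusted p = 0.0128). KP replicate 2 was the lowest of its group for both genes, as it was for Rrm2. In total mRNA the log2 fold changes were 1.08 for Tyms (edgeR adjusted p = 0.0866) and 1.09 for Dut (edgeR adjusted p = 0.0450).

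Of the salvage kinases of this branch, Dck was higher as well. This kinase, which phosphorylates deoxycytidine, was at 26.7, 19.6 and 17.9 CPM in N and 38.9, 36.1 and 40.3 CPM in KP on polysomes, a narrow KP group above N (log2 fold change 0.84 ± 0.21, edgeR adjusted p = 0.0208). In total mRNA its log2 fold change was 0.73 (edgeR adjusted p = 0.0611). Tk1, which phosphorylates thymidine, could be read only through the entry it shared with Afmid, a gene of tryptophan catabolism. That entry was at 32.3, 26.3 and 33.3 CPM in N and 187, 111 and 117 CPM in KP on polysomes. Its log2 fold change of 2.17 ± 0.27 was the largest value on polysomes, within error of that of Rrm2, and in total mRNA it was 1.80 ± 0.34. How many of these reads were Tk1 is not known. Over the branch, 5 of 6 tested genes were higher on polysomes and 6 of 6 in total mRNA, with median log2 fold changes of 1.34 and 1.04. Of all genes, 20.9% were higher on polysomes and 13.1% in total mRNA.

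**Figure D2:**
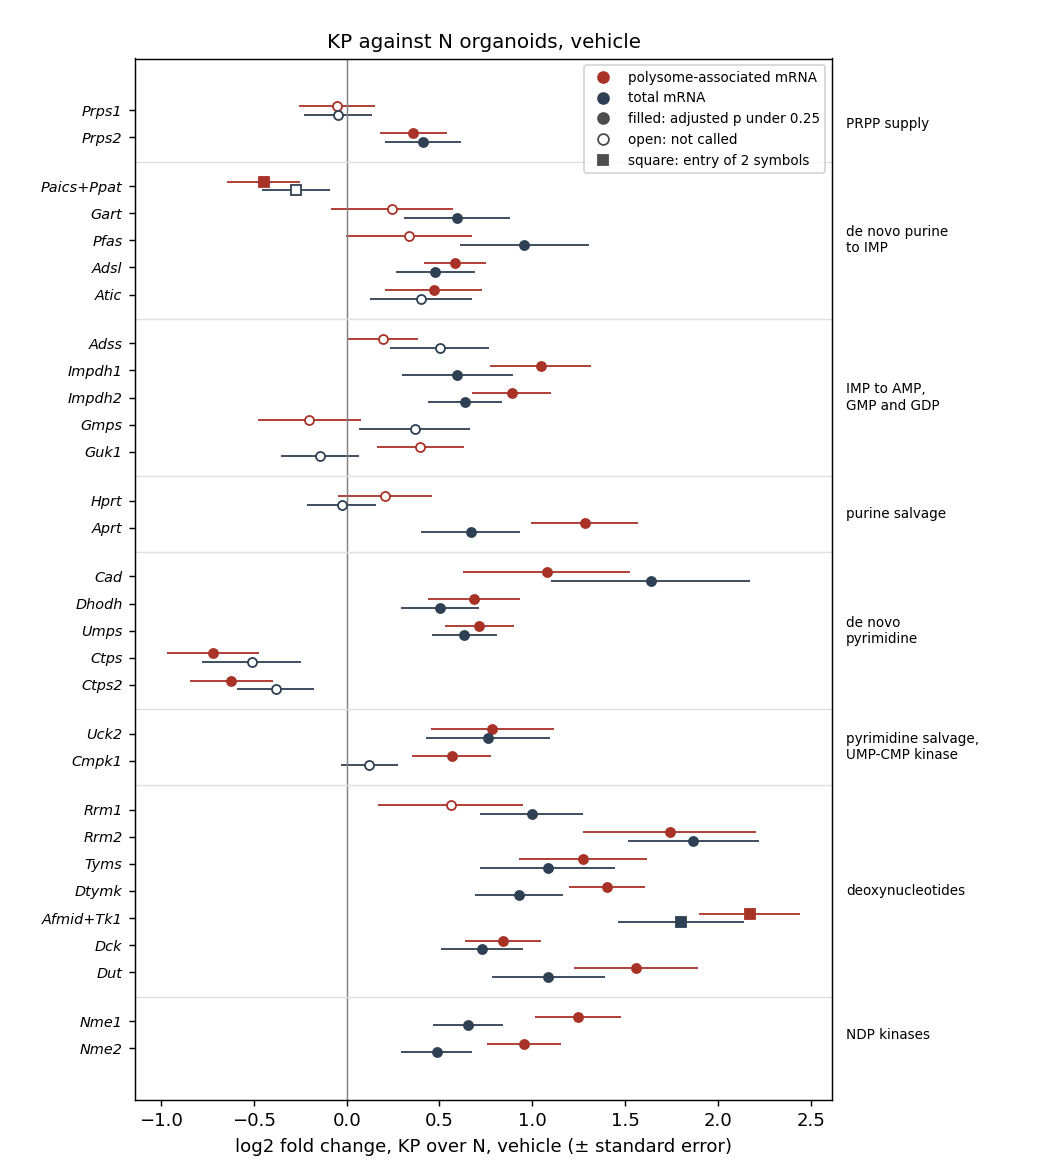
Log2 fold change of KP over N vehicle organoids (points) with its standard error (lines) for each enzyme, in polysome-associated (red) and total mRNA (dark blue), 3 libraries a group. Filled symbols passed edgeR's adjusted p of 0.25, open symbols did not, and squares mark entries of 2 symbols. Rrm2 lies at 1.74 and 1.87, the farthest right of the enzymes with an entry of their own, and Ctps and Ctps2 lie left of 0.

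In the purine branch 5 of 11 tested genes were higher on polysomes and 6 in total mRNA, and 0 were lower, with median log2 fold changes of 0.40 and 0.50. Of all genes, 20.9% were higher and 22.2% lower on polysomes, and 13.1% and 15.4% in total mRNA. Of the 4 tested genes of the de novo steps to IMP, 2 were higher on polysomes and 3 in total mRNA, with medians of 0.40 and 0.54. Adsl, which releases fumarate at 2 steps of purine synthesis, was at 57.9, 59.4 and 72.1 CPM in N and 98.1, 93.9 and 91.9 CPM in KP on polysomes, without overlap (log2 fold change 0.58 ± 0.17, edgeR adjusted p = 0.0358). It was 0.48 in total mRNA (edgeR adjusted p = 0.192). Atic, which closes the ring, had a log2 fold change of 0.47 on polysomes, just inside the threshold (edgeR adjusted p = 0.240), and 0.40 in total mRNA (edgeR adjusted p = 0.405). Gart and Pfas, which act earlier, passed in total mRNA, with log2 fold changes of 0.59 (edgeR adjusted p = 0.226) and 0.96 (edgeR adjusted p = 0.111). On polysomes theirs were 0.24 (edgeR adjusted p = 0.645) and 0.34 (edgeR adjusted p = 0.526). Pfas in total mRNA was at 19.5, 9.56 and 10.7 CPM in N and 28.8, 26.2 and 22.4 CPM in KP. N replicate 1 stood well above the other N lysates for Pfas, and the same was seen for Gart, at 68.6 CPM against 37.9 and 34 CPM in total mRNA.

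The joint entry of Paics and Ppat, whose products catalyse middle steps and the committed first step of purine synthesis, went the other way. It was at 374, 453 and 396 CPM in N and 304, 246 and 346 CPM in KP on polysomes, with KP wholly below N. With entries of several symbols kept in the table, it was lower in KP by edgeR's test on polysomes (log2 fold change -0.45, adjusted p = 0.139), and in total mRNA it was at -0.28 (edgeR adjusted p = 0.392), where it passed as lower only with the replicate number as a block (-0.27, edgeR adjusted p = 0.193). With CR-31 in total mRNA it was at -0.32 (edgeR adjusted p = 0.262), and again passed with the block (-0.33, edgeR adjusted p = 0.104). The reads of both genes cannot be separated here.

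Of the enzymes between IMP and AMP or GDP, both IMP dehydrogenases were higher and the other 3 did not pass. Impdh1 and Impdh2, which commit IMP to GMP, did not overlap between the groups. Impdh2 was at 217, 241 and 274 CPM in N and 452, 461 and 441 CPM in KP on polysomes, with little spread in KP (log2 fold change 0.89 ± 0.21, edgeR adjusted p = 0.0187). Impdh1 was at 98.8, 53.1 and 60.3 CPM in N and 147, 155 and 136 CPM in KP (log2 fold change 1.04 ± 0.27, edgeR adjusted p = 0.0273). In total mRNA they were 0.64 (edgeR adjusted p = 0.0681) and 0.60 (edgeR adjusted p = 0.246) higher on the log2 scale. The next enzymes toward GDP did not pass with all libraries and no block. Gmps was at -0.20 on polysomes (edgeR adjusted p = 0.656) and 0.37 in total mRNA (edgeR adjusted p = 0.498). Guk1 was at 0.40 (edgeR adjusted p = 0.260) and -0.14 (edgeR adjusted p = 0.728). Adss, the first step toward AMP, was at 0.20 (edgeR adjusted p = 0.507) and 0.50 (edgeR adjusted p = 0.276).

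Of the purine salvage enzymes, Aprt passed as higher in KP and Hprt did not pass. Aprt, which salvages adenine, was at 135, 84.8 and 152 CPM in N and 383, 296 and 224 CPM in KP on polysomes, without overlap (log2 fold change 1.28 ± 0.29, edgeR adjusted p = 0.0151). It was 0.67 higher in total mRNA (edgeR adjusted p = 0.143). Hprt, which salvages hypoxanthine and guanine and is often used as a reference gene, was at 215, 127 and 183 CPM in N and 255, 189 and 163 CPM in KP on polysomes. Its groups overlapped, with log2 fold changes of 0.21 (edgeR adjusted p = 0.605) on polysomes and -0.03 (edgeR adjusted p = 0.951) in total mRNA. PRPP synthesis, which feeds both routes, showed a like split of calls, and differences between the genes of either pair were not tested. Prps2 was 0.36 higher on polysomes (edgeR adjusted p = 0.185) and 0.41 in total mRNA (edgeR adjusted p = 0.249), and Prps1 was at -0.05 in both (edgeR adjusted p = 0.890 and 0.904).

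In the pyrimidine branch the mRNAs of the enzymes that make UMP were higher in KP, and those of the CTP synthases were lower on polysomes. On polysomes 5 of 7 genes were higher and 2 lower, and in total mRNA 4 were higher and 0 lower, with median log2 fold changes of 0.69 and 0.50. Of all genes, 20.9% were higher and 22.2% lower on polysomes, and 13.1% and 15.4% in total mRNA. Cad, the enzyme of the first 3 steps, was at 24.2, 10.4 and 9.73 CPM in N and 36.3, 29.8 and 27.5 CPM in KP on polysomes. In total mRNA it was at 20.6, 6.07 and 6.62 CPM in N and 38.3, 42.7 and 22.7 CPM in KP. The groups did not overlap in either, but N replicate 1 lay near the KP range. The log2 fold changes were 1.08 ± 0.45 (edgeR adjusted p = 0.119) and 1.64 ± 0.54 (edgeR adjusted p = 0.0798). Dhodh, the mitochondrial step, was at 13.3, 11.3 and 20.2 CPM in N and 26, 22 and 24.3 CPM in KP on polysomes (log2 fold change 0.69, edgeR adjusted p = 0.0792), and at 0.50 in total mRNA (edgeR adjusted p = 0.160). Umps, which ends UMP synthesis, was at 36.5, 37 and 47.8 CPM in N and 68.6, 65.5 and 64.8 CPM in KP on polysomes, and was 0.71 ± 0.19 higher there (edgeR adjusted p = 0.0260) and 0.64 ± 0.17 higher in total mRNA (edgeR adjusted p = 0.0417).

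Ctps and Ctps2, which aminate UTP to CTP, were the 2 tested members lower in KP. Ctps was at 150, 87.5 and 127 CPM in N and 81.8, 65.4 and 73.8 CPM in KP on polysomes. Ctps2 was at 24.8, 28.7 and 36.7 CPM in N and 19.5, 16.7 and 22.4 CPM in KP. Every KP value lay below every N value for both. They fell by 0.72 ± 0.25 (edgeR adjusted p = 0.0697) and 0.62 ± 0.23 (edgeR adjusted p = 0.0791) on the log2 scale. In total mRNA they did not pass, with log2 fold changes of -0.51 (edgeR adjusted p = 0.264) and -0.38 (edgeR adjusted p = 0.282). Uck2, the uridine and cytidine salvage kinase, was 0.78 higher on polysomes (edgeR adjusted p = 0.124) and 0.76 in total mRNA (edgeR adjusted p = 0.187), although N replicate 1 (68.2 CPM on polysomes) exceeded KP replicate 3 (63.0 CPM). Cmpk1, which phosphorylates UMP and CMP, was 0.57 higher on polysomes (edgeR adjusted p = 0.0872) and at 0.12 in total mRNA (edgeR adjusted p = 0.683).

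The nucleoside diphosphate kinases, which make the triphosphates of every base, were higher in both fractions. Nme1 was at 171, 120 and 118 CPM in N and 410, 300 and 260 CPM in KP on polysomes (log2 fold change 1.25 ± 0.23, edgeR adjusted p = 0.00699). Nme2 was at 420, 378 and 353 CPM in N and 790, 772 and 673 CPM in KP (log2 fold change 0.96 ± 0.20, edgeR adjusted p = 0.0117). In total mRNA they were 0.66 (edgeR adjusted p = 0.0508) and 0.49 (edgeR adjusted p = 0.141) higher on the log2 scale. The groups were apart in both fractions. Since these genes share sequence with Gm20390, the values may hold reads of that gene.

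When lysates of an organoid type with the same number were paired as a block, Pfas, Guk1 and Rrm1 also passed on polysomes (edgeR adjusted p = 0.0558, 0.0703 and 0.156). That fit called 21 members higher and 2 lower, against 34% and 34.8% of all genes. In total mRNA Atic and Adss passed as higher under the block (edgeR adjusted p = 0.0506 and 0.107), and Ctps and Ctps2 as lower (edgeR adjusted p = 0.0502 and 0.0938), as did the joint entry of Paics and Ppat. There the fit called 21 of the 28 members higher and 2 lower, against 27.7% and 28.7% of all genes.

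Other genes of nucleotide metabolism gave a background for this pattern. Of 52 listed, 35 were tested. On polysomes 11 were higher and 5 lower, against 20.9% and 22.2% of all genes. The 35 had a median log2 fold change of 0.26 and a range from -2.48 to 1.46. Those with the smallest p were Prpsap1, a PRPP synthetase partner (1.04), Dctpp1, a dCTP pyrophosphatase (1.46), and Nme6 (1.17) among the higher, and Xdh, which degrades purines to urate (-2.46), Cmpk2, a mitochondrial UMP-CMP kinase (-2.48), and Uprt (-1.46) among the lower. In total mRNA 6 were higher and 6 lower, against 13.1% and 15.4% of all genes, with a median of 0.03 over the 35. Here Dctpp1 (0.79) and Adk (0.68) were among the higher genes, and Cmpk2 (-2.98), Adssl1 (-1.12) and Xdh (-1.76) led the lower.

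Proliferation genes moved with the same groups. Of 15 listed (Mki67, Top2a, Pcna, Mcm genes and others), 14 were tested. In KP 12 were higher on polysomes and 14 in total mRNA, against 20.9% and 13.1% of all genes. The tested proliferation genes had median log2 fold changes of 0.99 and 1.41. Their summed level on polysomes was 661.7, 617.6 and 719.1 CPM in N vehicle and 1719, 1044 and 1513 CPM in KP vehicle, with KP replicate 2 lowest, as for Rrm2, Tyms and Dut. In total mRNA the sums were 706.4, 690.1 and 494.2 CPM in N and 1680, 1194 and 1572 CPM in KP. Their part in the difference between KP and N was not tested.

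The same comparison in CR-31-treated organoids used other lysates. On polysomes 16 members were higher in KP and 0 lower, against 11.2% and 13.8% of all genes, and in total mRNA 19 were higher and 2 lower, against 18.9% and 21%. The median log2 fold changes were 0.60 and 0.72. All 6 tested deoxynucleotide enzymes were higher in both. Rrm2 was at 27.6, 17.6 and 12.6 CPM in N and 140, 49.6 and 79.8 CPM in KP on polysomes (log2 fold change 2.22 ± 0.48, edgeR adjusted p = 0.0210), as wide a KP spread as with vehicle. Dtymk had a log2 fold change of 1.12 (edgeR adjusted p = 0.0122), Dut of 1.21 (edgeR adjusted p = 0.0521), Tyms of 1.18 (edgeR adjusted p = 0.0649), Dck of 0.83 (edgeR adjusted p = 0.0379), Cad of 1.26 (edgeR adjusted p = 0.117), Aprt of 0.81 (edgeR adjusted p = 0.112) and Prps2 of 0.69 (edgeR adjusted p = 0.0424). The count of called members fell to 10 without KP CR-31 replicate 1 (4.22% of all genes higher), and to 11 without all libraries that stood apart, where 8.40% of all genes were higher and 9.65% lower. All of these members were higher. Ctps and Ctps2 were at -0.38 and -0.29 on polysomes and passed there as lower with the block, when 23 members were higher and 2 lower, against 28.7% and 29.5% of all genes. The block without the libraries that stood apart gave 25 higher and 2 lower, against 31.5% and 33.9%, and without both lysates of N replicate 3 it gave 26 higher and 2 lower, against 35.9% and 38%. The proliferation genes summed to 767.6, 734.3 and 404.7 CPM in N and 1975, 1209 and 1697 CPM in KP on polysomes with CR-31, and their part was not tested.

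In total mRNA with CR-31, Cad had a log2 fold change of 2.17 ± 0.54 (edgeR adjusted p = 0.0293), the largest of the members. Its values were 14.9, 6.21 and 6.77 CPM in N and 62.5, 39.1 and 23.9 CPM in KP, with KP replicate 1, a library that stood apart, highest. Without those libraries Cad was at 1.60 (edgeR adjusted p = 0.268). Ctps and Ctps2 fell by 0.83 (edgeR adjusted p = 0.0663) and 0.63 (edgeR adjusted p = 0.0703) on the log2 scale, and without the same libraries by 0.57 and 0.45 (edgeR adjusted p = 0.421 and 0.366). The 13 members called there without those libraries were all higher, against 7.03% of all genes higher and 6.94% lower. With the block added, 23 were higher and 2 lower, against 38.4% and 33.7%, with Cad (1.80, edgeR adjusted p = 4.18e-05), Ctps (-0.52, edgeR adjusted p = 0.000506) and Ctps2 (-0.47, edgeR adjusted p = 0.00347) among them.

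Translational efficiency was compared next, as the difference between KP and N in polysome-associated mRNA over and above that in total mRNA. With all libraries 0 of the 28 members and 0 of 11438 genes passed (edgeR interaction test, lowest adjusted p = 0.433 among members). At an unadjusted p under 0.05 there were 4 members and 1296 genes, and DESeq2 also called 0 members. A regression of polysome-associated on total mRNA with limma's moderated variance, nearer to the study's anota2seq, called 595 genes higher and 602 lower, 5.20% and 5.26% of those tested. Of the members it called 2, Nme2 (1.11 ± 0.29, limma adjusted p = 0.174) and Dtymk (1.22 ± 0.37, limma adjusted p = 0.187), both higher. The study limited the slope on total mRNA that it accepted, and no such limit was set here. The value for Nme2 lay above its whole difference on polysomes. With the block the regression called 15 members higher and 2 lower, against 25.7% and 28.4% of all genes. The median over the members was 0.88 in that fit and 0.05 in edgeR's test with all libraries. Their median difference on polysomes was 0.64, so at the median the blocked regression exceeded the whole polysome difference. In edgeR's test the fitted differences ran from -0.67 (Cad) to 0.58 (Aprt). Without the libraries that stood apart, 15 members (53.6%) were higher and 5 (17.9%) lower, against 28.7% and 25.3% of all genes. This set was chosen after the values were seen and leaves 2 N lysates with each treatment and 2 KP lysates with CR-31.

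In that fit the members with higher translational efficiency in KP included Aprt (0.81 ± 0.17, edgeR adjusted p = 0.0104), Dtymk (0.61 ± 0.18, edgeR adjusted p = 0.0317), Nme1 (0.58 ± 0.21, edgeR adjusted p = 0.0625), Dhodh (0.46, edgeR adjusted p = 0.0422), Impdh1 (0.43, edgeR adjusted p = 0.0203) and Guk1 (0.42, edgeR adjusted p = 0.0318). The 5 lower were Cad (-0.63, edgeR adjusted p = 0.0910), Pfas (-0.57, edgeR adjusted p = 0.0315), Gmps (-0.45, edgeR adjusted p = 0.0317), Rrm1 (-0.34, edgeR adjusted p = 0.0839) and Rrm2 (-0.28, edgeR adjusted p = 0.137). These genes are named after their values were seen. Log2 ratios of polysome-associated to total CPM show the dependence. For Aprt they were -0.02, -0.51 and 0.38 in the N vehicle lysates and 0.75, 0.61 and 0.37 in KP, so that N replicate 3 lay inside the KP range. For Impdh1 they were 0.07, -0.09 and -0.01 in N and 0.38, 0.53 and 0.45 in KP, without overlap. For Cad they were 0.23, 0.78 and 0.56 in N and -0.08, -0.52 and 0.28 in KP. Leaving out N vehicle replicate 3 alone gave 4 calls, 2 higher and 2 lower, against 8.36% and 10.4% of all genes. With CR-31, 0 members passed in the comparison of KP with N (lowest edgeR adjusted p = 0.754, 2 members at an unadjusted p under 0.05). The regression with the block called 13 higher and 1 lower there, against 16.2% and 16.7% of all genes. Its median over the members was 0.70, above their median difference of 0.60 on polysomes, again with no limit on the slope. With the block and without the libraries that stood apart, edgeR called 4 higher (Guk1, Aprt, Dtymk and Dut) and 1 lower (Cad), against 8.45% and 11.1%.

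**Figure D3:**
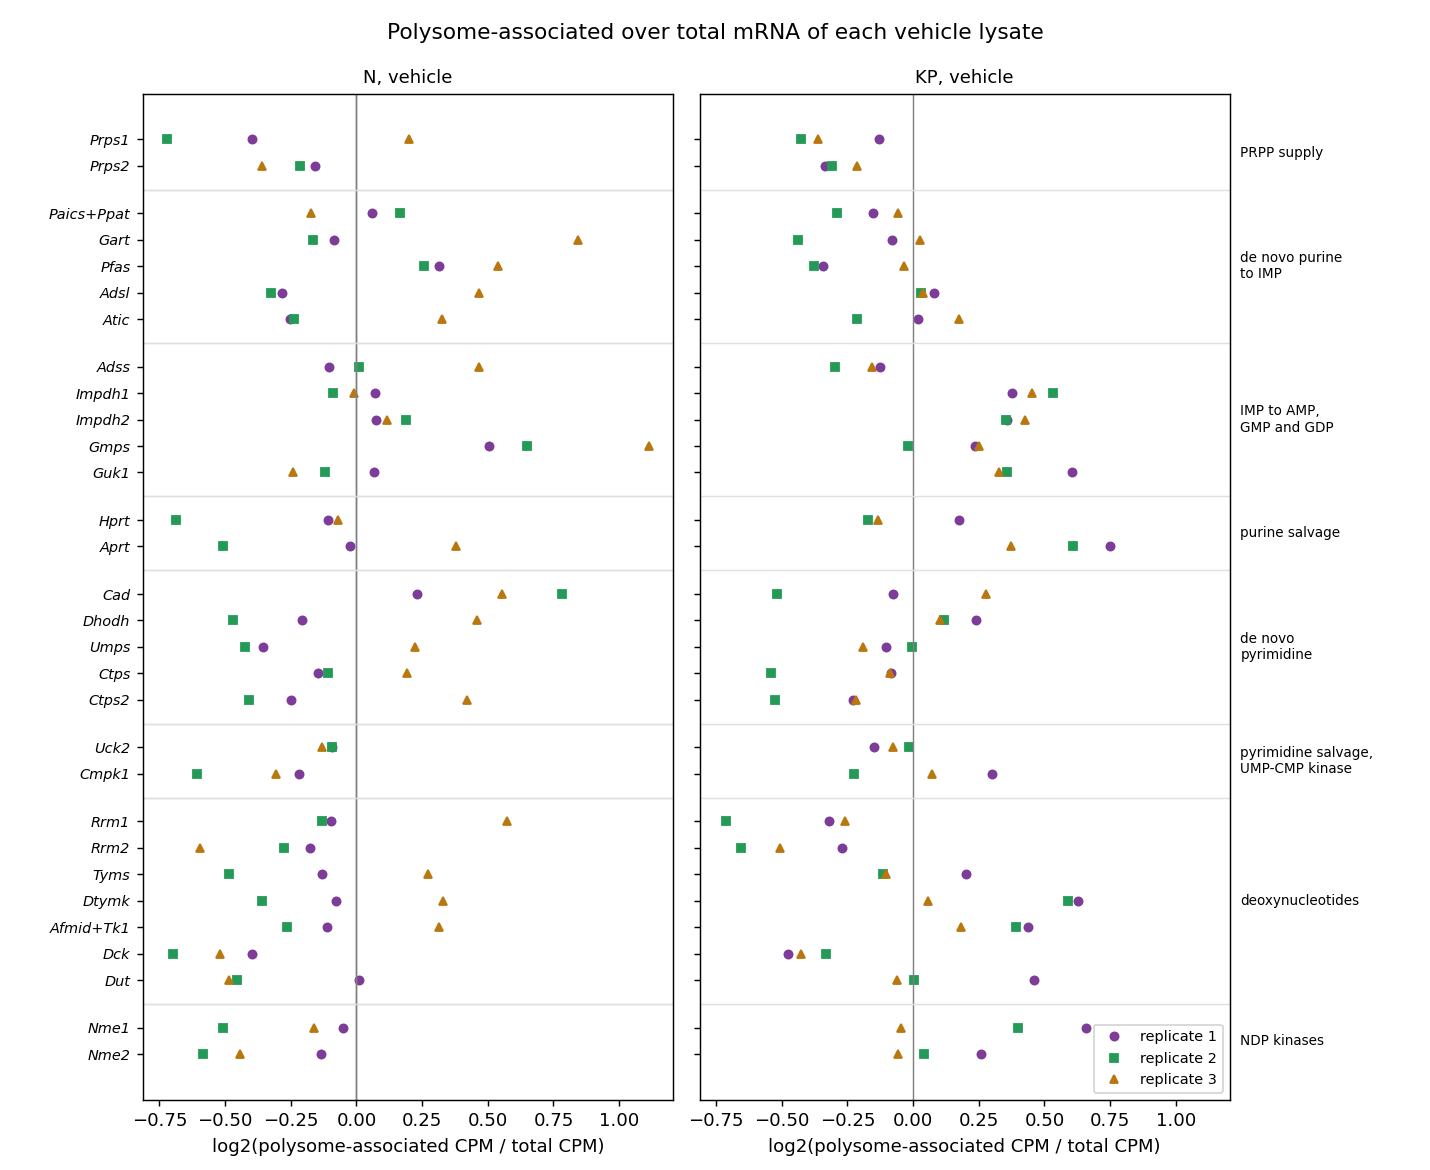
Log2 ratio of polysome-associated to total CPM of each enzyme in each vehicle lysate of N (left) and KP (right) organoids. Each point is 1 lysate, with a symbol for each replicate number. N replicate 3 (triangles) lies to the right of the other N lysates for Gart, Gmps, Rrm1 and Aprt, and Dck lies left of 0 in all 6 lysates.

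Polysome-associated mRNA was also set against total mRNA within a group, first with all libraries. In N vehicle 2 members were relatively higher on polysomes and 4 lower, against 8.83% and 6.36% of all genes. Gmps was higher by 0.71 (edgeR adjusted p = 0.199) and Cad by 0.47 (edgeR adjusted p = 0.230). Dck was lower, with log2 ratios of -0.40, -0.70 and -0.52 in the 3 lysates and a fitted value of -0.59 ± 0.13 (edgeR adjusted p = 0.0235). Rrm2 had log2 ratios of -0.18, -0.28 and -0.60. Cmpk1 (-0.43, edgeR adjusted p = 0.166), Rrm2 (-0.40, edgeR adjusted p = 0.188) and Nme2 (-0.44, edgeR adjusted p = 0.217) were also lower. With the block 3 members passed, all lower (Cmpk1, Rrm2 and Dck). Without N vehicle replicate 2 the count was 0, and it was 3 without N CR-31 replicate 1, KP vehicle replicate 1 or KP vehicle replicate 3, which share the estimate of spread. Those fits called 1.75% of all genes for the 0, and 11.8% to 12.4% for the 3. Without the libraries that stood apart, 3 were higher and 21 lower, against 22.5% and 31.8%.

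In KP vehicle 3 members were relatively higher on polysomes and 7 lower, against 14.2% and 13.3%. Aprt (0.48, edgeR adjusted p = 0.162), Impdh1 (0.36, edgeR adjusted p = 0.234) and Guk1 (0.34, edgeR adjusted p = 0.205) were higher. Rrm2 had log2 ratios of -0.27, -0.66 and -0.51 (fitted -0.57 ± 0.15, edgeR adjusted p = 0.0699), and Dck of -0.48, -0.33 and -0.43 (fitted -0.51 ± 0.13, edgeR adjusted p = 0.0635). All 6 vehicle lysates of both organoid types thus had less Rrm2 and Dck on polysomes than in total mRNA, relative to other genes. The other 5 that were lower were Rrm1 (-0.52, edgeR adjusted p = 0.166), Ctps2 (-0.42, edgeR adjusted p = 0.191), Prps1 (-0.40, edgeR adjusted p = 0.226), Prps2 (-0.38, edgeR adjusted p = 0.201) and Pfas (-0.35, edgeR adjusted p = 0.238). With the block only Aprt, Rrm2 and Dck passed. The count was 0 without KP vehicle replicate 1 or 2, 1 without KP vehicle replicate 3, and 6 without KP CR-31 replicate 2 or N CR-31 replicate 1. Those fits called 0.481% to 0.525%, 6.08% and 22.3% to 22.6% of all genes. Without the libraries that stood apart, 6 were higher and 12 lower, against 30% and 32.8%.

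The effect of CR-31 was compared with vehicle within each organoid type. By edgeR 0 members and 0 genes passed in polysome-associated or total mRNA of N or KP with all libraries and no block, and DESeq2 also called 0 members. Without the libraries that stood apart and with no block, 0 members passed in these comparisons or in translational efficiency (lowest edgeR adjusted p = 0.661). At an unadjusted p under 0.05 there were 0 members in KP polysome-associated mRNA (406 of all genes), 0 in KP total (109), 1 in N polysome-associated (48) and 0 in N total mRNA (297). Fitted log2 fold changes in KP polysome-associated mRNA ran from -0.54 (Impdh1) to 0.79 (Rrm1), and in N from -0.54 (Rrm2) to 0.22 (Rrm1). Translational efficiency gave 0 members in both types, with lowest edgeR adjusted p of 0.529 in KP and 0.736 in N, and 0 of the 28 had an unadjusted p under 0.05 in either. In KP the count became 6 higher and 7 lower with the block and without both lysates of N replicate 3, against 24.1% and 22% of all genes. By regression with the block it became 2 higher and 3 lower, against 8.04% and 8.67%.

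Same-numbered vehicle and CR-31 libraries deviated together, so the comparison was also made with the replicate number as a block. Then 1 member rose and 4 fell in KP polysome-associated mRNA, which is 3.57% and 14.3% of the 28, against 8.30% and 11.1% of all genes, shares near that background. Without both lysates of N replicate 3 the block gave 5 higher and 14 lower, against 25.4% and 29.5% of all genes. Rrm1 was at 80.1, 41.7 and 88.8 CPM with vehicle and 152, 92.9 and 119 CPM with CR-31, and every replicate rose (log2 fold change 0.83 ± 0.26, edgeR adjusted p = 0.192). Impdh1 fell from 147, 155 and 136 to 103, 94.7 and 103 CPM, with no overlap (-0.54 ± 0.16, edgeR adjusted p = 0.192). Aprt fell from 383, 296 and 224 to 235, 189 and 206 CPM (-0.49 ± 0.16, edgeR adjusted p = 0.193). Guk1 (-0.37, edgeR adjusted p = 0.239) and Dtymk (-0.36, edgeR adjusted p = 0.243) also fell, lower in 3 of 3 replicates each, although Dtymk in replicate 3 was at 148 CPM with either treatment. The entry shared by Afmid and Tk1 also fell with the block (-0.41, edgeR adjusted p = 0.197). Without the libraries that stood apart, the block gave 3 higher and 7 lower on KP polysomes, against 17.6% and 20.6%. In KP total mRNA 0 members passed with the block, and 2 higher and 7 lower without those libraries, against 11.8% and 8.17%.

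In N organoids 0 members passed with the block (lowest edgeR adjusted p = 0.950 on polysomes and 0.459 in total mRNA). There the log2 ratio of Rrm1 on polysomes was 0.46 and 0.54 in replicates 1 and 2 and -0.80 in replicate 3, whose libraries stood apart. With the block and without the libraries that stood apart, 2 members were higher and 3 lower on N polysomes, against 6.59% and 2.52% of all genes. Gart (0.36, edgeR adjusted p = 0.197) and Rrm1 (0.50, edgeR adjusted p = 0.102) were higher, and Prps2 (-0.40, edgeR adjusted p = 0.129), Cad (-0.55, edgeR adjusted p = 0.0472) and Rrm2 (-0.57, edgeR adjusted p = 0.0295) lower. In N total mRNA the same fit gave 3 higher and 10 lower, against 13.2% and 14.5%. These fits leave 2 N lysates with each treatment and 2 KP lysates with CR-31.

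**Figure D4:**
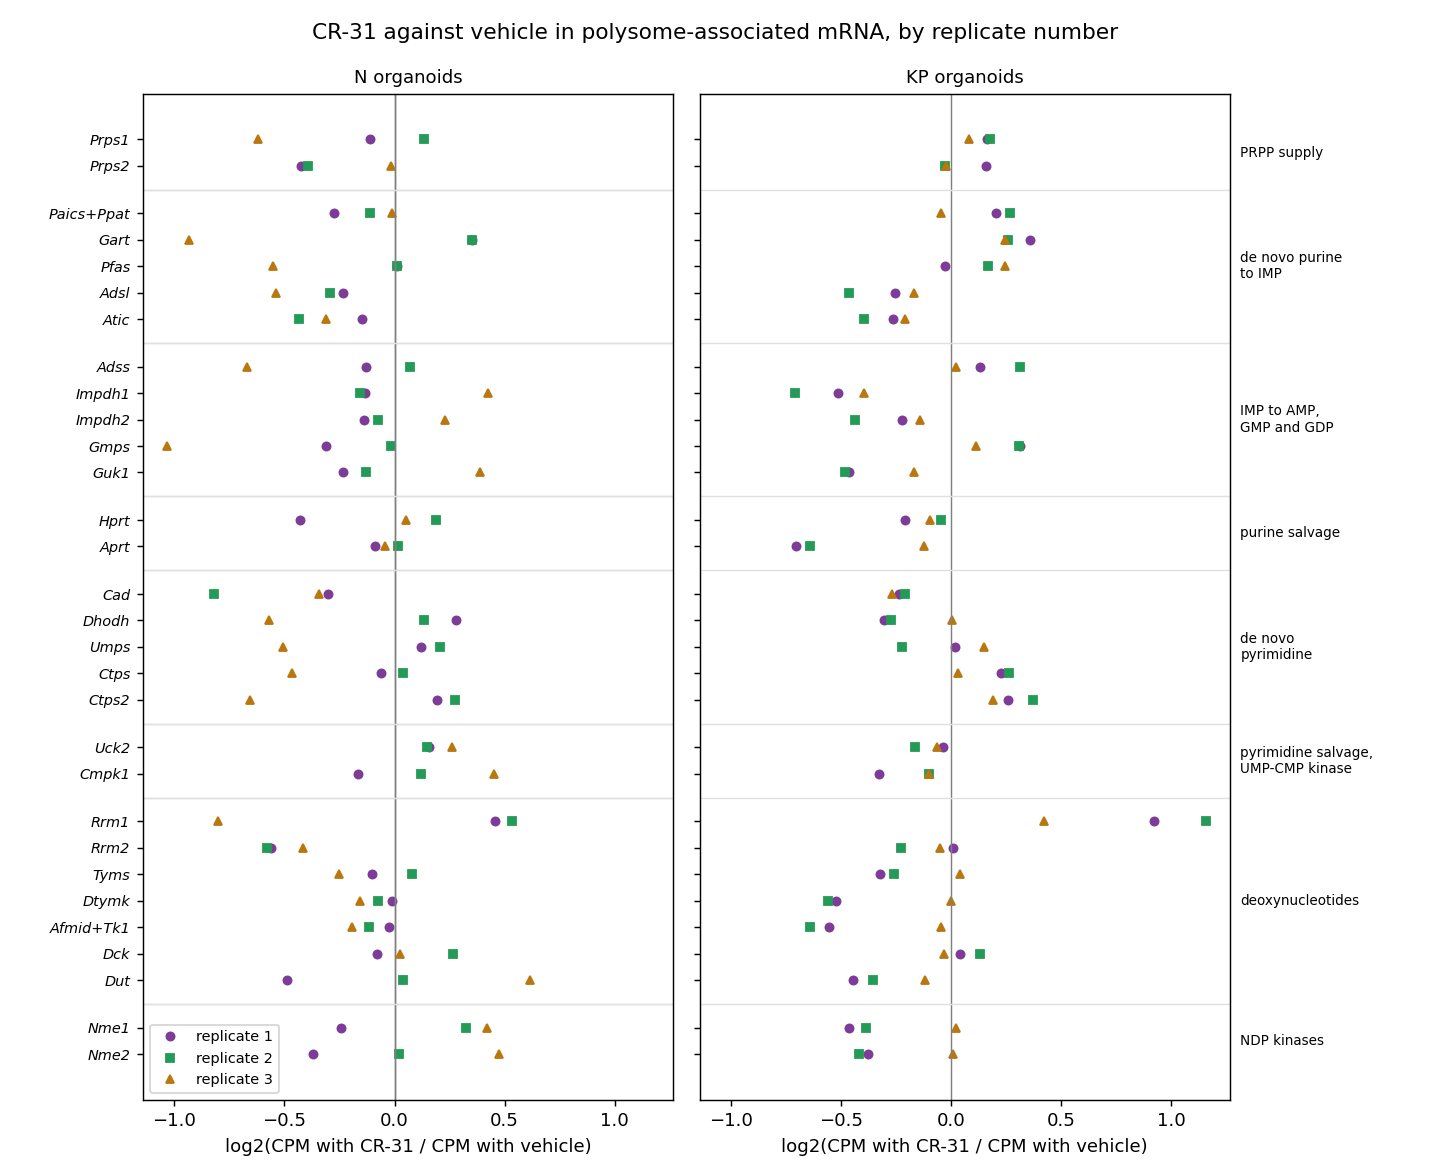
Log2 ratio of CPM with CR-31 over CPM with vehicle in polysome-associated mRNA, for N (left) and KP (right) organoids. Each point joins same-numbered lysates, with a symbol for each replicate number. In KP, Rrm1 lies right of 0 in 3 of 3 replicates (0.92, 1.16 and 0.42) and Impdh1 left of 0 in 3 of 3, and in N replicate 3 (triangles) often lies away from the other pairs.

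The difference of the CR-31 effect between KP and N passed for 0 members, by edgeR or DESeq2, in polysome-associated mRNA (lowest edgeR adjusted p = 0.999, 0 members at an unadjusted p under 0.05), in total mRNA (1.00, 0 members) and in translational efficiency (0.419, 2 members). With the block it was also 0 in each, with a lowest edgeR adjusted p of 0.346 on polysomes. Leaving out N CR-31 replicate 2 gave 4 members for translational efficiency, 3 higher and 1 lower, against 9.77% and 6.85% of all genes. With the block and without both lysates of N replicate 3, 3 members were higher and 3 lower on polysomes, against 11.1% and 15.9% of all genes. The lower were Impdh1 (-0.40 ± 0.16, edgeR adjusted p = 0.151), Aprt (-0.46, edgeR adjusted p = 0.175) and Dhodh (-0.41, edgeR adjusted p = 0.151). The higher were Prps2 (0.44, edgeR adjusted p = 0.108), Gmps (0.40, edgeR adjusted p = 0.144) and Rrm2 (0.47, edgeR adjusted p = 0.103). Rrm1 did not pass there (0.33, edgeR adjusted p = 0.326). A difference between the organoid types on polysomes was thus called for Impdh1 in that fit alone among the 3 with the block, and for Rrm1 in none of them.

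Levels per transcript length, in the deposited RPKM values, placed the members over a wide range. In total mRNA Nme2 was highest in both vehicle groups (716 ± 77.8 RPKM in N and 1031 ± 36.7 RPKM in KP, SD, n = 3), and Aprt, Impdh2 and Nme1 ranked 2 to 4 in KP, at 208 ± 35.1, 194 ± 11.5 and 186 ± 19.1 RPKM, with ranges that overlapped each other. At the low end of N were Pfas (1.87 ± 0.90 RPKM) and Cad (1.42 ± 1.14 RPKM), also overlapping. In KP Cad (4.40 ± 1.34 RPKM), Ctps2 (4.0 ± 0.20 RPKM) and Pfas (3.68 ± 0.54 RPKM) came last, and their ranges overlapped.

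Paralogue pairs kept the order of their levels between the organoid types. Impdh2 was above Impdh1 in total mRNA of N (121 ± 8.22 against 26.7 ± 9.58 RPKM) and KP (194 ± 11.5 against 41.3 ± 3.69 RPKM), and both were higher in KP. Nme2 was above Nme1 in N (716 ± 77.8 against 115 ± 23.8 RPKM) and in KP. Ctps was above Ctps2 in N (40.9 ± 15 against 5.04 ± 0.96 RPKM) and KP (29.1 ± 2.66 against 4.0 ± 0.20 RPKM), with both lower on polysomes in KP. Prps1 was above Prps2 in N (28.5 ± 5.74 against 13.6 ± 2.46 RPKM) and KP (28.2 ± 2.49 against 18.5 ± 0.70 RPKM), and here only Prps2 was called higher in KP. Whether the paralogues of a pair changed unequally was not tested. The coding sequences of each pair shared no 100-base window.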

How the data were processed

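RNA-seq read counts and RPKM values were used as deposited for 24 libraries. The authors aligned 100-base paired reads with HISAT2, discarded reads mapping to several places and took counts per gene with RPKMforgenes over full transcripts. The same deposited table gives RPKM (reads scaled by transcript length and library size), used here only to compare levels between genes. The study's methods name the human build hg38 although the gene models are those of mouse. Groups were taken from the sample labels, and no count column was left out.

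Of 19895 entries, 1042 held several symbols and were left out of the main test. The 11438 genes with reads in all 24 libraries were tested with edgeR 4.0.16 (R 4.3.3, limma 3.58.1; TMM, quasi-likelihood, Benjamini-Hochberg over all genes, threshold 0.25), in 1 model of 4 groups per fraction. Translational efficiency was the interaction of fraction and group over 24 libraries with the lysate as a block, in place of the study's anota2seq. CPM values were TMM scaled. DESeq2 1.42.0, other normalizations and filters, lane, leaving out libraries, and regression on total mRNA were alternatives. Scripts were tested on simulated data. Figures and summaries used Python 3.11.15 (numpy 2.4.6, pandas 2.3.3, matplotlib 3.10.9).

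Same-numbered vehicle and CR-31 libraries of an organoid type deviated from their group means together (r = 0.455 to 0.892), so the number was taken to pair them; same-numbered N and KP libraries did not (r = -0.168 to 0.279). The members and the gene lists were chosen with earlier results of these data known. All 31 members were named in the vehicle comparison of KP with N; elsewhere a member was named if called without or with the block, at most 8 per direction, and other nucleotide genes by the 3 smallest adjusted p per direction. Promoters came from RefSeq (GRCm38.p6), and coding sequences and UTRs from GENCODE M21. Some items that these rules or the sample labels name are not reported here.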

Additional observations from a re-analysis of the deposited data

How the results depend on the processing

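Counts of called members in 17 comparisons moved as follows. KP against N with vehicle gave 20 called members in polysome-associated mRNA, 15 to 21 with 1 lysate left out in turn and 12 at an adjusted p of 0.05. In total mRNA 19 became 8 to 22, 5 at 0.05, and 8 without both lysates of N replicate 3 (22 with the block). With CR-31, 16 on polysomes became 10 to 22, 6 at 0.05, 25 with the replicate block, 27 with the block and without the libraries that stood apart, and 28 with the block and without N replicate 3 (17 without the block). Those 3 blocked fits called 58.2%, 65.5% and 73.9% of all genes. The 21 in total mRNA became 16 to 21, 10 at 0.05, and 13 without the libraries that stood apart (25 with the block).

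For translational efficiency, KP against N with vehicle went from 0 to between 0 and 4 with 1 lysate left out, 10 without N replicate 3 (13 with the block), 20 without the libraries that stood apart (21 with the block), and 2 by regression on total mRNA (17 with the block). The regression called 10.5% of all genes and 7.14% of the members, and 54.1% and 60.7% with the block. In edgeR's test without the libraries that stood apart the shares were 54.1% and 71.4%, and 65% and 75% with the block. Shares of all genes for the fits without N replicate 3 are not given, so those counts do not set the members apart from other genes. With CR-31 it went from 0 (0 to 0 leaving out 1 lysate) to 5 with the block and without the libraries that stood apart, and to 14 by regression with the block. For CR-31 in KP, the 0 on polysomes became 5 with the block, 10 with the block and without the libraries that stood apart, and 19 with the block and without N replicate 3. The 0 in total mRNA became 9 with the block and without the libraries that stood apart. The 0 for translational efficiency became 13 with the block and without N replicate 3, 1 with the block and without the libraries that stood apart, and 5 by regression with the block. For CR-31 in N, the 0 on polysomes became 5 under the block with either set left out, and the 0 in total mRNA became 13 with the block and without the libraries that stood apart (0 without them and no block). Leaving out 1 lysate kept 0 in all 6 of these. The difference of the CR-31 effect between KP and N became 6 on polysomes with the block and without N replicate 3. For translational efficiency it became 1 with the block and without the libraries that stood apart, and 0 to 4 with 1 lysate left out. It stayed at 0 in total mRNA.

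Polysome-associated against total mRNA in N vehicle went from 6 to between 0 and 9 with 1 lysate left out, 1 at 0.05, 3 with no filter, 3 with the block, 2 with lane as a term, 14 without N replicate 3 (18 with the block) and 24 without the libraries that stood apart, with or without the block. In KP vehicle 10 became 0 to 13, 0 at 0.05, 4 with no filter, 3 with the block, 17 without N replicate 3 (18 with the block) and 18 without the libraries that stood apart (22 with the block). Without the libraries that stood apart, the unblocked fits called 22.5% of all genes higher and 31.8% lower in N vehicle. In KP vehicle they called 30% and 32.8%. Shares for the fits without N replicate 3 are not given, so those counts do not set the members apart from other genes. The cause of these shifts in the counts was not tested. In the fits of all libraries the replicate block changed no other count by over 1.5 times.

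Of 2254 single-gene values under the alternatives, 1950 kept direction and side of the threshold, 211 lost the call, 77 gained one and 16 changed sign, all of genes that had not passed. Prps1 on polysomes became 0.077 without N vehicle replicate 3, 0.016 without KP vehicle replicate 3, and 0.085 without N replicate 3 or without the libraries that stood apart, with or without the block, and ranged down to -0.190 without N vehicle replicate 2. Prps1 in total mRNA became 0.025, 0.001 and 0.016 without N vehicle replicate 1, N vehicle replicate 2 and KP vehicle replicate 3, and -0.164 without N vehicle replicate 3. Guk1 in total mRNA became 0.00026 without N vehicle replicate 3 or both its lysates, 0.002 with the block added, and 0.016 and 0.014 without the libraries that stood apart, without and with the block, and -0.299 without KP vehicle replicate 2. Hprt in total mRNA became 0.050 without N vehicle replicate 1 and 0.066 without KP vehicle replicate 3, and -0.098 without KP vehicle replicate 1. With upper-quartile scaling the median of all genes moved to -0.13 on polysomes for KP against N with vehicle, and 16 members were higher and 2 lower there. The fits without libraries that stood apart, and those without N replicate 3 that add the block, were chosen after seeing the data. The lowest count of these genes was 299. Groups held 3 lysates, or 2 where a lysate was left out, and organoid type was on separate lanes.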
